A study of Mus musculus with 8 samples.

Results

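The genes described here are 37 mouse genes that belong to the ATF4 stress response or encode cytosolic tRNA synthetases. They were taken by name: 19 genes of stress signalling, serine, glycine and asparagine synthesis and amino acid transport, and 18 cytosolic synthetase genes. All 37 were found among the 24112 genes of each library, and 35 passed the filter on low values (at least 1 RPKM, reads per kilobase of gene per megaread, in at least 4 libraries). Trib3 and Chac1 did not pass. RNA came from LSK cells (lineage-negative, Sca1+, Kit+), the bone marrow fraction enriched for blood stem and early progenitor cells, sorted from C57BL/6 mice after transplantation. The WT group (4 libraries) had received Vav-Cre+ marrow and the KO group (4 libraries) Traf6-/-;Vav-Cre+ marrow. Both groups thus carried Cre under the Vav promoter, whose activity is in blood cells. The age of the mice and the number behind each library are not stated in the labels. The p-values therefore reflect variation among these libraries, and that variation may be technical.

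TRAF6, a ubiquitin ligase, links receptors of the Toll-like and interleukin-1 families to NF-κB. Traf6 (Entrez 22034) was read at 14.9, 3.52, 9.40 and 7.10 RPKM in WT1 to WT4 and at 0.613, 0.818, 0 and 0.00721 RPKM in KO1 to KO4. The groups did not overlap (exact permutation test, 2-sided, p = 0.0286, which is the lowest value possible with 70 assignments), and all 8 libraries followed their labels. The test used below for all genes did not call Traf6 itself (log2 difference -2.75 ± 0.53, limma adjusted p = 0.341). With library weights, in which KO2 counted most, it was called, at a limma adjusted p of 0.00785. Estimated depth was 19.3 to 30.7 M reads (M, mega), and 9055 to 13689 genes were listed above 0, fewest in KO3. KO3 listed 24.1% of the tested genes at 0, so an exact 0 in that library is given as listed and not read as absence. WT1 to WT4, KO1 and KO2 were sequenced in lane 4 and KO3 and KO4 in lane 5. Lane 5 therefore held KO libraries only. In these bulk samples, fewer cells of a type and less RNA per cell cannot be told apart.

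When amino acids run short, the endoplasmic reticulum fills with unfolded protein or certain other stresses act, kinases phosphorylate the translation initiation factor eIF2. Most translation then slows while the mRNA of the transcription factor ATF4 is translated more, so ATF4 protein can change with little change in Atf4 RNA. ATF4 binds DNA with C/EBP proteins and raises genes for amino acid synthesis, amino acid carriers and tRNA synthetases, the enzymes that load each amino acid onto its tRNA. Blood stem cells are known for a low rate of protein synthesis, and this pathway has been studied in them as a response to nutrient and protein stress.

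The DNA element through which ATF4 and C/EBP proteins act has the core TGATGNAA (TTNCATCA on the opposite strand), and it was searched for on both strands because it links many of these genes. RefSeq promoter windows (GRCm38.p6, 250 bases before to 50 after the start) were at hand for 29 of the 37 genes, and 9 of these 29 (31.0%) held the core. Of all 32851 windows of the same length, 3.97% held it. Counted by gene, it was in 4.51% of all genes with a window and in 2.64% of the tested ones. Since the genes were picked as part of the ATF4 stress response or as cytosolic synthetases, this share is not independent of the choice. Stricter forms were found in 6 of the 29 genes (TGATGCAA, 20.7%, against 0.895% of all windows) and in 3 (TGATGNAAT, 10.3%, against 0.965%). The matches are shown 5′ to 3′ on the strand of each gene, with the core in capitals.
Asns: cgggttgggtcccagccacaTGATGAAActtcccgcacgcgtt
Slc7a11: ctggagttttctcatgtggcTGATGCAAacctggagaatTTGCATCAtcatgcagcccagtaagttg
Chac1: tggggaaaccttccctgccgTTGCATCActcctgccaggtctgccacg
Trib3: agcagcagattagctcaggtTTACATCA
Aars: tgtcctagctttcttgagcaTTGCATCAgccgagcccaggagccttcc
Gars: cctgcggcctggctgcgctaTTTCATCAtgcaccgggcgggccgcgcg
Iars: tgagcctggcactgtcagtaTTGCATCA
Tars: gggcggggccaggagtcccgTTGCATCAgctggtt
Yars: agcggagcgacgagctcagcTGATGCAA

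The Asns stretch lies at chr6:7693210-7693252 (minus strand), with the core starting 23 bases before the start site. Slc7a11, at chr3:50443633-50443699 (minus strand), was the gene with a pair of cores in 1 stretch, starting 66 and 47 bases before the start and pointing opposite ways. The Chac1 stretch is at chr2:119351029-119351076 (plus strand), 193 bases before the start, and the Trib3 stretch at chr2:152344039-152344066 (minus strand), from base 15 of the transcript. The synthetase stretches are at chr8:111033710-111033757 for Aars (plus, 112 bases before), chr6:55037951-55037998 for Gars (plus, 30 bases before), chr13:49682117-49682144 for Iars (plus, from base 8 of the transcript), chr15:11399659-11399693 for Tars (minus, 15 bases before) and chr4:129189886-129189913 for Yars (plus, from base 4). Aars held another match, 10 bases after the start.

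The core was therefore found in 5 of the 11 synthetase genes with a window (45.5%). Among gene lists outside the 37, it was in 7 of 22 promoters of other ATF4-responsive genes (31.8%). It was in 1 of 8 of the subunits of eIF2 and its exchange factor eIF2B (12.5%). Among other serine, glycine and 1-carbon genes it was in 1 of 11 (9.09%), and among other amino acid carriers in 1 of 10 (10%). Mitochondrial tRNA synthetases held it in 0 of 14 and the remaining cytosolic synthetase and scaffold genes in 0 of 5. Over all lists together, 10 of 73 genes outside the 37 held it (13.7%). The related cyclic AMP response element, TGACGTCA, which reads the same on both strands, occurred in 1 of the 29 genes (3.45%). It was in 1.79% of all windows, in 2.03% of all genes with a window and in 3.61% of the tested ones. The 1 gene of the 29 was Ppp1r15a, at chr7:45526269-45526300 (minus strand), 12 bases before the start.
Ppp1r15a: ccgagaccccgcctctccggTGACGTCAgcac

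Of the 35 tested genes, 0 passed an adjusted p under 0.05 (limma on log2(RPKM + 1), Benjamini-Hochberg over 11276 genes), and the same test called 0% of all genes. The smallest adjusted p among them was 0.627. Library weights lower the influence of scattered libraries. They were 1.5, 6.5, 0.137 and 0.351 in KO1 to KO4 and 0.468 to 2.02 in WT, so KO2 counted most in KO. With these weights limma called 1.45% of all genes (0.594% higher and 0.86% lower) and again 0 of the 35. On the log2 scale 17 genes were higher in KO and 18 lower, and the median KO minus WT difference was -0.01, beside -0.14 over all genes tested, of which 39.0% were higher. Quantile normalization moved the median of all genes to 0.00 and that of the 35 to -0.06, with 15 higher and 20 lower. With library weights 21 were higher and 14 lower. Within lane 4, 24 were higher and 11 lower (68.6% higher, median 0.19), against 48.7% of all genes. The median was -0.18 without KO1 and 0.11 without KO3. At an unadjusted p under 0.05 stood 3 of the 35 genes: Phgdh, higher in KO, and Ddit4 and Ppp1r15a, lower. Over all genes 7.51% met that limit, 2.77% higher and 4.74% lower. Leaving out WT1 left 1 of the 35 under that limit, beside 4.90% of all genes. Leaving out KO3 or KO4 gave 5, beside 9.45% and 8.83% of all genes. The groups did not overlap in 1 of the 35, Phgdh, which was higher in KO, against 5.92% of all genes (2.05% higher and 3.88% lower).

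**Figure D1:**
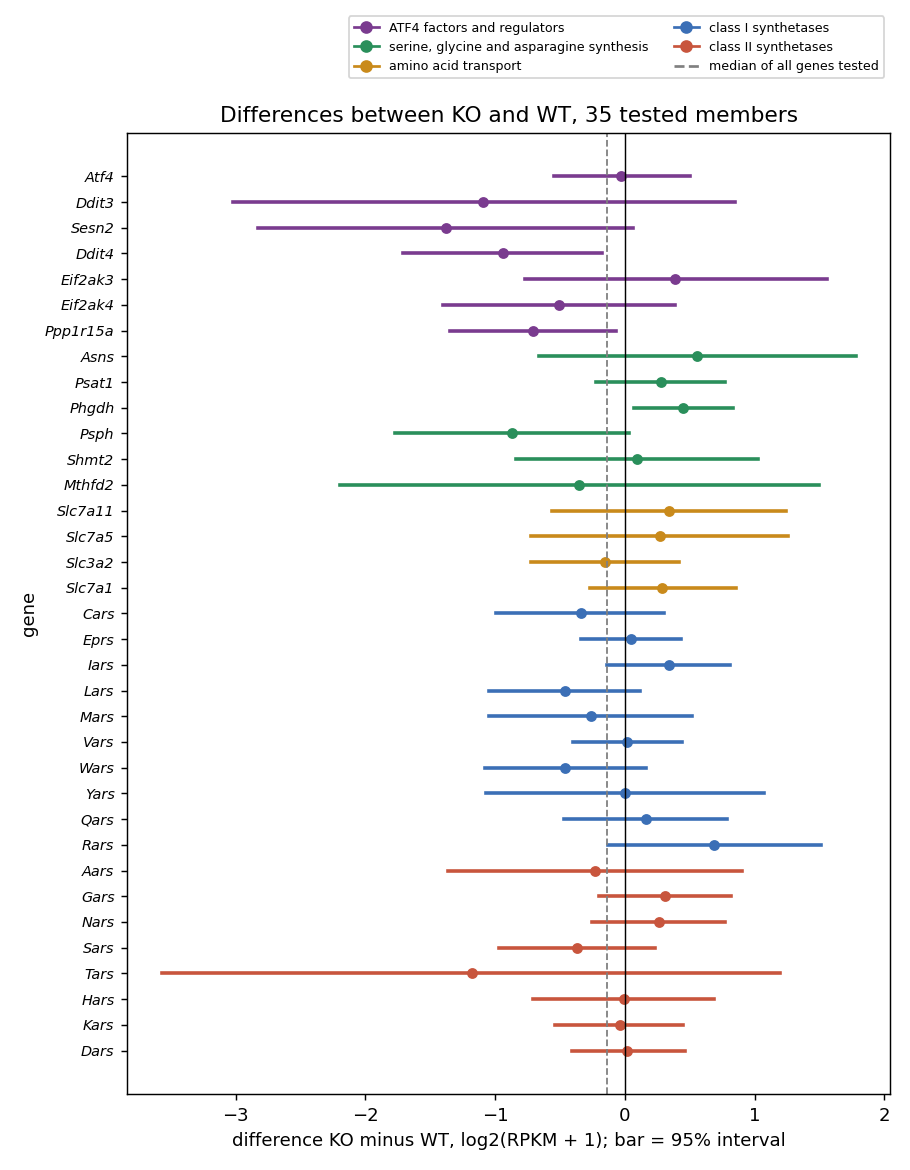
Difference between KO and WT on the log2(RPKM + 1) scale (x axis) for the 35 tested genes (y axis), with bars for the 95% interval, 4 libraries a group, colours for the role of the gene and a dashed line at the median of all genes tested, -0.14. The intervals of Phgdh, Ddit4 and Ppp1r15a leave out 0, and those of Tars and Ddit3 are the widest.

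Among the regulators of the stress response, 6 of 7 tested genes were lower in KO and 1 was higher, with a median difference of -0.71. None passed the adjusted test (limma). Without KO3 the median was -0.21. The transcription factor itself had nearly the same mean in both groups. Atf4 (Entrez 11911) was read at 261, 141, 228 and 145 RPKM in the WT libraries and at 230, 155, 178 and 178 RPKM in KO. All 4 KO values lay within the range of WT. The means were 194 ± 60.1 and 185 ± 32.1 RPKM (SD, n = 4), a log2 difference of -0.03 ± 0.24 (SE) with a 95% interval of -0.55 to 0.50 and limma adjusted p = 0.979.

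Ddit4 (Entrez 74747) encodes REDD1, an inhibitor of the growth kinase complex mTORC1. It was read at 30.0, 31.3, 24.2 and 25.3 RPKM in the WT libraries and at 14.5, 24.8, 14.4 and 6.93 RPKM in KO. KO2 overlapped with WT while the other KO libraries lay below every WT library. The log2 difference was -0.94 ± 0.34 (95% interval -1.71 to -0.18, limma adjusted p = 0.627). Within lane 4 it was -0.51 and without KO4, the lowest library, -0.64.

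Ppp1r15a (Entrez 17872) encodes GADD34, which directs a phosphatase to eIF2 and so ends the response. Its values were 105, 61.3, 90.7 and 62.5 RPKM in WT and 28.8, 47.0, 61.6 and 59.1 RPKM in KO. The groups overlapped by 1 library, KO3, which exceeded WT2. The log2 difference was -0.71 ± 0.29 (95% interval -1.35 to -0.07, limma adjusted p = 0.634), -1.06 within lane 4 and -0.48 without KO1. Ppp1r15a overlaps Tulp2 in the annotation, and the labels do not say whether the counting used strand.

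Sesn2 (Entrez 230784), which encodes a leucine sensor that holds back mTORC1, was read at 6.48, 14.6, 7.50 and 3.33 RPKM in the WT libraries and at 3.40, 3.69, 0 and 3.51 RPKM in KO. The KO libraries lay near the lowest WT library or below it. The log2 difference of -1.38 ± 0.65 (limma adjusted p = 0.665) became -0.84 without KO3. Ddit3 (Entrez 13198) encodes CHOP, a transcription factor of prolonged stress. It was read at 17.8, 15.4, 15.6 and 18.3 RPKM in the WT libraries and at 10.1, 16.7, 0 and 23.8 RPKM in KO. Both the highest and the lowest value were in KO, and the log2 difference of -1.09 ± 0.87 became -0.06 without KO3. Ddit3 overlaps Mars and Mbd6 in the annotation.

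The kinases that phosphorylate eIF2 went apart in sign. Eif2ak3 encodes PERK, the kinase of the endoplasmic reticulum, and was read at 7.22, 9.31, 6.93 and 2.88 RPKM in WT and 4.81, 5.23, 20.2 and 9.16 RPKM in KO. Its log2 difference of 0.39 ± 0.52 rested on KO3. It was 0.00 without KO3, 0.36 without KO4 and -0.25 within lane 4. Eif2ak4 encodes GCN2, the kinase that senses uncharged tRNA, and was read at 12.4, 10.8, 11.3 and 10.4 RPKM in WT and 8.22, 7.05, 3.62 and 14.8 RPKM in KO (log2 difference -0.51 ± 0.40, limma adjusted p = 0.749, or -0.21 without KO3). The KO values spread on both sides of a narrow WT range.

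Trib3, a pseudokinase, and Chac1, an enzyme that breaks down glutathione, are transcribed strongly when ATF4 is active in many cell types. Trib3 was listed at 3.23 RPKM in WT3 and at 0 in the other 7 libraries. Chac1 was listed at 1.47 RPKM in KO1, at 0.592 RPKM in KO2 and at 0 in the rest. Neither gene was tested.

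**Figure D2:**
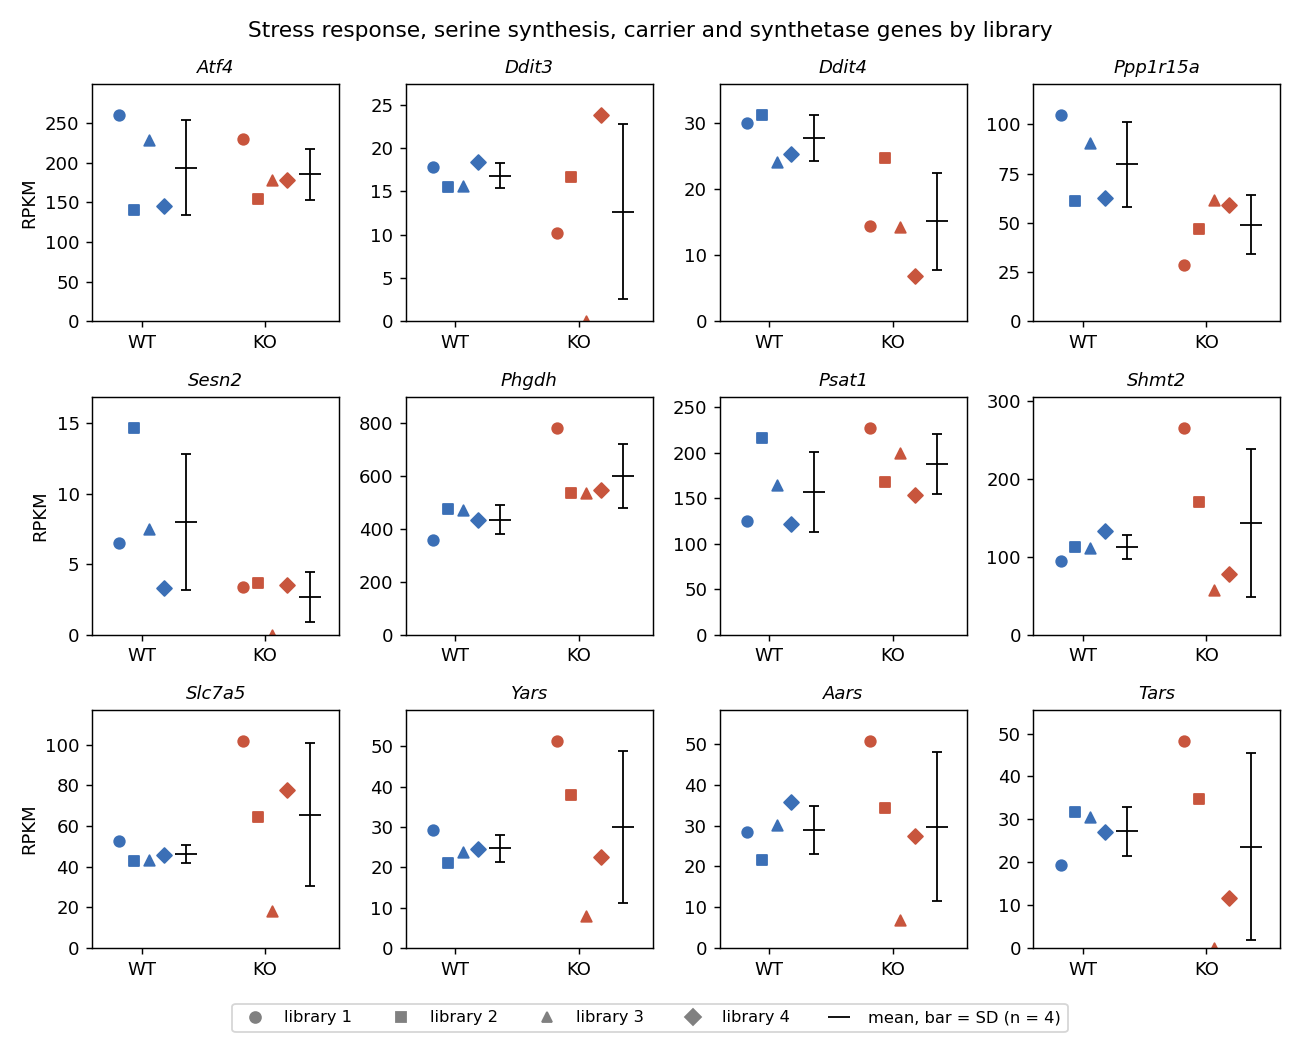
RPKM (y axis, from 0) of 12 genes in each of the 8 libraries, WT on the left and KO on the right of each panel, with a symbol for each library and the mean ± SD (n = 4) as a black bar. All 4 Phgdh values of KO lie above WT, Atf4 overlaps between groups, and Shmt2, Slc7a5, Yars and Aars spread further in KO than in WT, with KO1 highest and KO3 lowest.

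Genes for making serine, glycine and asparagine were higher in KO in 4 of 6 cases and lower in 2, with a median log2 difference of 0.19, and none passed the adjusted test (limma). The median was -0.05 without KO1, 0.47 without KO3, 0.07 without both and 0.60 within lane 4. Its sign thus turned when KO1 alone was left out. Phgdh (Entrez 236539), the enzyme of the committed step from glycolysis to serine, was the most abundant of the 37 genes. It was read at 359, 476, 471 and 433 RPKM in the WT libraries and at 780, 534, 533 and 547 RPKM in KO. Every KO library lay above every WT library, by the largest margin in KO1. The means were 435 ± 54.1 and 599 ± 121 RPKM (SD, n = 4), and the log2 difference was 0.45 ± 0.17 (95% interval 0.07 to 0.83, limma adjusted p = 0.634), or 0.32 without KO1. A pseudogene, Phgdh-ps1, is annotated, and the labels do not say how reads shared with it were assigned.

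The enzymes that complete the serine pathway differed from each other. Psat1, the transaminase of the middle step, was read at 125, 216, 164 and 122 RPKM in WT and 227, 168, 200 and 154 RPKM in KO (log2 difference 0.28 ± 0.22, limma adjusted p = 0.749). Psph, the phosphatase of the last step, was read at 20.6, 21.0, 23.0 and 26.9 RPKM in WT and 27.9, 13.4, 8.10 and 6.52 RPKM in KO. KO1 was above every WT library and the other KO libraries were below all of them. The log2 difference of Psph was -0.87 ± 0.40 (95% interval -1.77 to 0.03, limma adjusted p = 0.665), -0.22 within lane 4 and -1.25 without KO1. Psph overlaps Cct6a in the annotation.

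Shmt2 and Mthfd2 encode mitochondrial enzymes that pass the 1-carbon unit of serine to folate. Shmt2 was read at 95.0, 113, 112 and 133 RPKM in the WT libraries and at 266, 171, 57.8 and 78.4 RPKM in KO. The lane 4 KO libraries lay above every WT library and the lane 5 KO libraries below. The log2 difference was therefore 0.09 ± 0.42 over all libraries but 0.92 within lane 4, where the unadjusted p fell under 0.05 and the adjusted test called no member. Mthfd2 was read at 8.55, 5.57, 11.6 and 9.13 RPKM in the WT libraries and at 18.3, 9.86, 0.0214 and 13.1 RPKM in KO. Its log2 difference was -0.35 ± 0.83 with KO3 and 0.60 without it. Shmt2 overlaps Ndufa4l2 in the annotation.

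Asns, which makes asparagine and carries the core shown above, was read at 13.1, 2.56, 6.23 and 12.6 RPKM in the WT libraries and at 22.5, 10.8, 11.8 and 5.51 RPKM in KO. The WT range alone spanned most of the KO values, and the log2 difference was 0.56 ± 0.55 (limma adjusted p = 0.785). It was 0.25 without KO1 and 0.15 without WT2. All 6 genes of this group were highest in KO1, against 9.93% of all tested genes.

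Amino acid carriers were higher in KO in 3 of 4 cases, with a median log2 difference of 0.28 and none past the adjusted test (limma). Slc7a5 and Slc3a2 encode the light and heavy chain of the carrier that brings in leucine and other large neutral amino acids. Slc7a5 was read at 52.5, 42.9, 43.4 and 45.9 RPKM in the WT libraries and at 102, 64.6, 18.4 and 77.9 RPKM in KO. In KO 3 libraries lay above WT and KO3 lay below it. The log2 difference was 0.27 ± 0.44, 0.79 without KO3 and -0.02 without KO1. Slc3a2 was read at 86.3, 86.2, 92.2 and 78.5 RPKM in the WT libraries and at 101, 87.0, 44.2 and 90.0 RPKM in KO (-0.15 ± 0.25), again with KO1 highest and KO3 lowest.

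The other carriers spread less in KO, with an SD of log2(RPKM + 1) of 0.21 for Slc7a1 and 0.11 for Slc7a11. Slc7a5 and Slc3a2 had 1.07 and 0.53. In WT the order was the other way, at 0.19 and 0.27 against 0.13 and 0.09. Slc7a1, which carries arginine and lysine, was read at 14.0, 12.2, 13.8 and 10.2 RPKM in WT and 12.8, 15.2, 18.9 and 15.7 RPKM in KO (log2 difference 0.29 ± 0.25, limma adjusted p = 0.765). Slc7a11, which exchanges glutamate for cystine, stayed near the limit of the filter, between 0.722 and 1.66 RPKM in WT and between 1.53 and 2.03 RPKM in KO. As a mean log2(RPKM + 1) of the 4 carriers minus that of all tested genes in the same library, the group stood at 0.52, 0.52, 0.42 and 0.14 in the WT libraries and 0.85, 0.66, 0.67 and 0.97 in KO. Every KO library lay above every WT library on this relative scale. Without the subtraction KO3 stood at 3.91, below the WT range of 4.03 to 4.38, and the other KO libraries at 4.53 to 4.62, above it. No test was made of it, since the genes were chosen with earlier results known.

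The 18 synthetase genes were divided evenly, 9 higher and 9 lower in KO, with a median log2 difference of 0.00. The smallest adjusted p among them was 0.684 (limma). Class I and class II synthetases, which differ in the fold of the catalytic domain, gave medians of 0.01 (10 genes, 6 higher) and -0.02 (8 genes, 3 higher). Eprs, which loads both glutamate and proline, was counted in class I only. With quantile normalization 6 of the 18 were higher and 12 lower, and with library weights 12 were higher and 6 lower. Within lane 4, 14 of the 18 were higher (median 0.21), among them all 8 of class II (median 0.31). The split between directions thus depended on the scaling, the weighting and the libraries used.

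Levels per kilobase in WT ran from 125 ± 19.9 RPKM (SD, n = 4) for Vars, the valine enzyme, and 110 RPKM for Kars (lysine) to 21.4 RPKM for Mars (methionine) and 15.4 RPKM for Cars (cysteine). In between, from high to low, stood Gars, Nars, Hars, Eprs, Qars, Dars, Rars, Wars, Aars, Sars, Iars, Lars, Tars and Yars. No pair of neighbours in this order was separated over the WT libraries. A pseudogene, Kars-ps1, is annotated, and Hars overlaps Hars2, Aars overlaps Ddx19b and Wars overlaps Wdr25.

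Rars (Entrez 104458), the arginine enzyme, had the largest positive difference of the 35 genes. It was read at 32.7, 34.7, 50.5 and 64.6 RPKM in the WT libraries and at 72.5, 65.2, 139 and 39.4 RPKM in KO. KO4 lay inside the WT range and the other KO libraries above it. The log2 difference was 0.69 ± 0.37 (95% interval -0.13 to 1.51, limma adjusted p = 0.684), or 0.37 without KO3.

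Tars (Entrez 110960), the threonine enzyme, had the largest negative difference among the synthetases, and it rested on 1 library. It was read at 19.3, 31.8, 30.6 and 27.0 RPKM in the WT libraries and at 48.2, 34.7, 0 and 11.6 RPKM in KO. KO3 was listed at 0 while KO1 and KO2 exceeded WT. The log2 difference of -1.18 ± 1.06 became 0.02 without KO3.

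Aars (alanine) and Yars (tyrosine) were both highest in KO1 and lowest in KO3. Aars was read at 28.4, 21.6, 30.1 and 35.7 RPKM in the WT libraries and at 50.7, 34.3, 6.81 and 27.4 RPKM in KO, and its log2 difference of -0.23 ± 0.51 became 0.34 without KO3. Yars was read at 29.3, 21.1, 23.8 and 24.5 RPKM in the WT libraries and at 51.3, 38.0, 7.85 and 22.7 RPKM in KO. The difference of Yars was 0.00 ± 0.48 over all libraries and 0.82 within lane 4. Both genes spread further in KO than in WT.

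Several synthetases had nearly equal group means and narrow intervals. Eprs, which loads both glutamate and proline, was read at 69.1, 56.3, 54.3 and 62.5 RPKM in WT and 61.5, 55.9, 62.1 and 70.3 RPKM in KO, a log2 difference of 0.05 with a 95% interval of -0.34 to 0.43. Dars (aspartate) was read at 52.8, 42.7, 47.0 and 55.4 RPKM in WT and 55.7, 48.2, 59.3 and 39.4 RPKM in KO, with an interval of -0.41 to 0.46. Vars was read at 115, 148, 132 and 103 RPKM in WT and 142, 149, 110 and 106 RPKM in KO, with an interval of -0.40 to 0.44. For these 3 genes the intervals do not reach a doubling or a halving.

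The leucine and tryptophan enzymes had lower means in KO, and KO3 was the lowest library in both. Lars was read at 28.1, 27.1, 30.8 and 26.4 RPKM in WT and 29.2, 22.2, 12.8 and 19.5 RPKM in KO (log2 difference -0.46 ± 0.26). Wars was read at 32.5, 32.8, 27.9 and 30.5 RPKM in WT and 33.5, 26.6, 13.6 and 19.6 RPKM in KO (-0.46 ± 0.28). In both, KO1 lay within 1 RPKM of the WT range or inside it and the other KO libraries lay below. Without KO3 the differences were -0.26 for Lars and -0.24 for Wars, and within lane 4 they were -0.14 and -0.04. The remaining synthetases, namely Cars, Iars, Mars, Qars, Gars, Nars, Sars, Hars and Kars, had log2 differences between -0.37 and 0.34 and limma adjusted p between 0.709 and 0.997.

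A cytosolic complex holds the enzymes of Eprs, Iars, Lars, Mars, Qars, Rars, Kars and Dars together on scaffold proteins. Their median log2 difference was 0.03 (5 higher, 3 lower), beside -0.12 (4 higher, 6 lower) for the 10 synthetases outside it. The median outside the complex was -0.42 without KO1, 0.14 without KO3 and 0.32 within lane 4 (8 of 10 higher), so 1 library turned its sign. The genes outside the complex were highest in KO1 in 7 of 10 cases, and those of the complex in 0 of 8, against 9.93% of all tested genes. KO3 was lowest in 5 of 10 outside and in 4 of 8 within, against 30.3% of all tested genes. As a mean log2(RPKM + 1) of the group minus that of all tested genes, the synthetases outside the complex stood at 1.50, 1.63, 1.48 and 1.49 in WT and at 2.09, 1.59, 1.05 and 1.37 in KO. Those of the complex stood at 1.64, 1.59, 1.59 and 1.81 in WT and at 1.95, 1.71, 2.11 and 1.88 in KO. On this relative scale KO1 and KO3 lay on opposite sides of WT outside the complex and above WT within it. Without the subtraction the complex stood at 5.35 in KO3, inside the WT range of 5.26 to 5.70, and the genes outside it at 4.29, below the WT range of 5.31 to 5.39. The difference between these groups of genes was not tested.

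**Figure D3:**
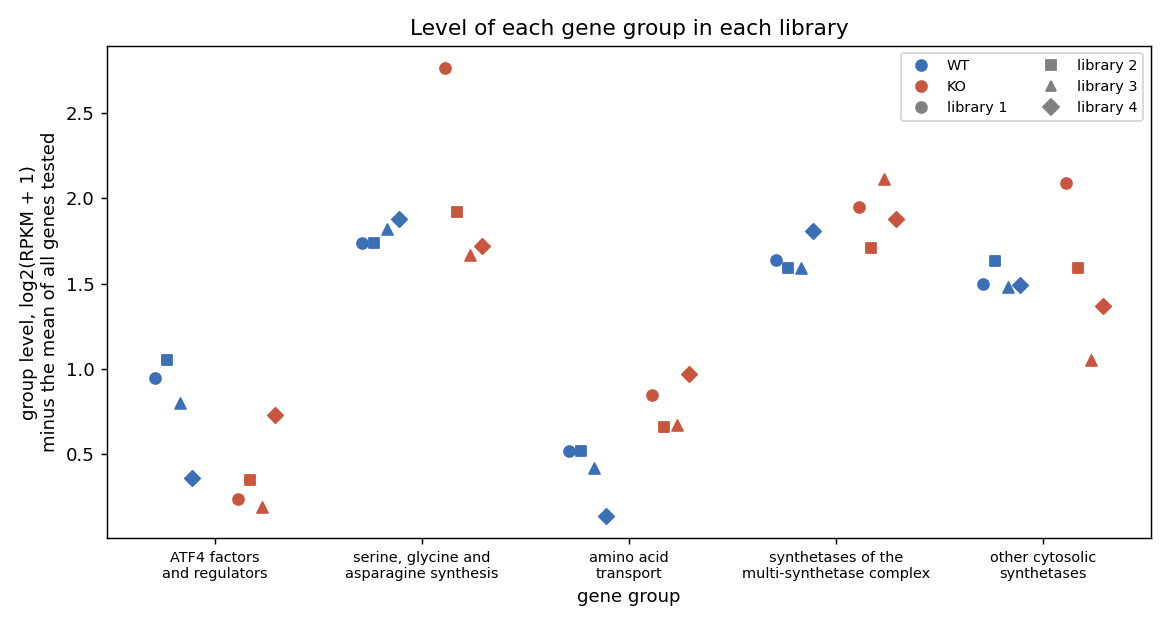
Level of each gene group (y axis, mean log2(RPKM + 1) minus the mean of all genes tested in that library) in the 8 libraries, by group on the x axis, with blue for WT, red for KO and a symbol for each library. KO1 stands highest for serine, glycine and asparagine synthesis, at 2.76 against 1.74 to 1.88 in WT, and the cytosolic synthetases outside the complex spread from 1.05 to 2.09 in KO.

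KO1 and KO3 often held the extreme values, and the way to count this was chosen after the values were seen. KO1 held the highest value in 15 of the 35 genes (42.9%), against 9.93% of all tested genes. KO3 held the lowest in 16 of 35 (45.7%), against 30.3% of all tested genes. Both held in the same gene in 9 of 35 (25.7%, against 3.43% of all tested genes): Shmt2, Mthfd2, Slc7a5, Slc3a2, Wars, Yars, Aars, Tars and Hars. Among genes with a mean of at least 20 RPKM, KO1 was highest in 11 of 24 of the listed genes (45.8%) and in 16.2% of 3934 genes. KO3 was lowest in 11 of the 24 and in 25.5% of the 3934. Without KO3, KO1 was highest in 18 of 35 (51.4%, against 12.6% of all genes), and within lane 4 in 19 of 35 (54.3%, against 15.3%). After quantile normalization it was 13 of 35 (37.1%, against 10.3%).

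The level of serine, glycine and asparagine synthesis genes was 1.74, 1.74, 1.82 and 1.88 in the WT libraries and 2.76, 1.92, 1.67 and 1.72 in KO, so that KO1 stood alone. The level of the stress regulators was 0.95, 1.05, 0.80 and 0.36 in the WT libraries and 0.24, 0.35, 0.19 and 0.73 in KO. Among the regulators the KO libraries lay low with the exception of KO4, and WT4 lay with them. Replicate spread was wider in KO for 30 of 35 genes (85.7%), against 71.7% of all genes, with a median SD on the log2 scale of 0.21 in WT and 0.54 in KO (0.40 and 0.64 over all genes).

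**Figure D4:**
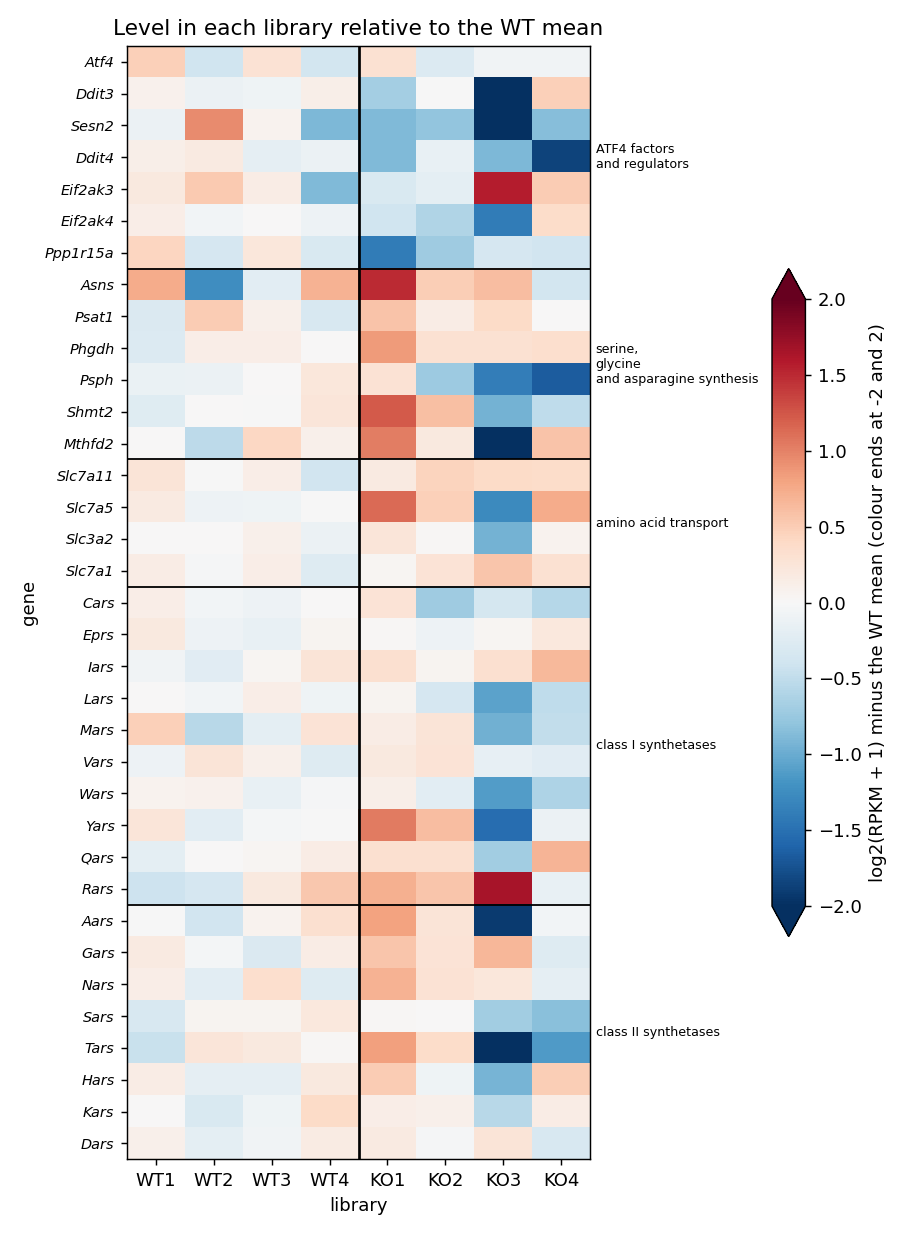
Level of each of the 35 tested genes (rows, grouped by role) in each library (columns) as log2(RPKM + 1) minus the mean of the 4 WT libraries, with red above and blue below that mean and the colour ending at -2 and 2. The KO1 column is mostly red in the serine, glycine and asparagine group and the KO3 column holds most of the deep blue cells, among them Ddit3, Mthfd2 and Tars.

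Cell type markers moved with the libraries. All 6 granulocyte-monocyte progenitor genes measured (Mpo, Elane, Prtn3, Ctsg, Ms4a3 and Cebpe) had a higher mean log2 level in KO. Their summed level was 606 to 1815 RPKM in WT and 7938, 3665, 2846 and 2068 RPKM in KO1 to KO4. KO1 was thus highest in these genes as in 15 of the 35. All 10 LSK markers (among them Kit, Ly6a, Cd34 and Flt3) had a lower mean log2 level in KO. They summed to 657 to 731 RPKM in WT and 491 to 608 RPKM in KO. Single values overlapped, and Kit was highest in KO4 (113 RPKM), Cd34 in KO3 (284 RPKM) and Gata2 in KO2 (50.5 RPKM). Of all genes tested, 39.0% were higher in KO. Erythroid markers summed to 123 to 242 RPKM in WT and 52.2 to 199 RPKM in KO, lowest in KO1. Mature myeloid markers summed to 133 to 179 and 167 to 200 RPKM, and megakaryocyte markers to 47.7 to 90.2 and 45.1 to 125 RPKM. B cell markers summed to 5.91 to 22.1 and 6.65 to 18.0 RPKM and stromal and endothelial markers to 16.3 to 27.6 and 13.8 to 24.8 RPKM. The T and NK cell list, at 402 to 456 and 385 to 726 RPKM, consisted almost wholly of Nkg7. Of the defining lymphoid and stromal markers, Cd79a, Ms4a1, Cd3g, Col1a1 and Col3a1 were at 0 in all 8 libraries. The part of the progenitor markers in the results above was not tested.

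Tested genes whose promoter holds the core shown above were higher in KO in 5 of 7 cases, with a median log2 difference of 0.31. That median was 0.15 without WT2, 0.15 with a filter at a mean of 5 RPKM and 0.10 without KO1 and KO3. Within lane 4 it was 0.53 and with library weights 0.33, with 7 of 7 higher in both. Genes with a promoter window without the core were higher in 8 of 20, with a median of -0.10. Their median was 0.04 within lane 4 (12 of 20 higher) and -0.03 with library weights (9 of 20 higher). The contrast was not tested. The 5 genes with the core that were higher over all libraries were Asns, Slc7a11, Gars, Iars and Yars (the last by 0.00). Aars and Tars were lower. The level of these 7 genes was 0.52, 0.31, 0.36 and 0.51 in the WT libraries and 1.23, 0.74, 0.12 and 0.49 in KO, with KO1 and KO2 above every WT library, KO4 inside the WT range and KO3 below it.

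Other genes of the pathway were counted from 7 lists, leaving out the 37. None was called in any list (limma). Of 4 further eIF2 kinase and phosphatase genes, 1 was higher and 3 were lower (median -0.10). Eif2ak1, the haem-regulated kinase, was listed at 0 in KO3 and had a log2 difference of -1.36 ± 0.93, which was -0.26 without KO3 and -0.03 within lane 4. Eif2ak2, the kinase that senses double-stranded RNA, had one of 0.43 ± 0.33, or 0.11 without KO4. Among the 9 subunits of eIF2 and of its exchange factor eIF2B, 5 were higher and 4 lower (median 0.01). At an unadjusted p under 0.05 stood 1, against 7.51% of all genes tested. That gene was Eif2s2, the beta subunit of eIF2, at 205, 213, 229 and 198 RPKM in WT and 376, 264, 227 and 287 RPKM in KO (log2 difference 0.43 ± 0.18, limma adjusted p = 0.637). KO1 was again the highest library.

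Of 18 tested partners of ATF4 and other ATF4-responsive genes (25 listed), 9 were higher and 9 lower, with a median of -0.01 (0.16 without KO3, -0.15 without KO2). At an unadjusted p under 0.05, 1 was higher and 3 were lower, against 2.77% and 4.74% of all genes tested. Atf3, an early stress-induced transcription factor, was read at 11.3, 4.26, 8.75 and 2.36 RPKM in the WT libraries and at 0.0165, 0.504, 0 and 0 RPKM in KO. All KO libraries lay below all WT libraries, as in 3.88% of all genes tested. The log2 difference was -2.61 ± 0.52 (limma adjusted p = 0.420), and with library weights the adjusted p was 0.0262.

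Nfe2l2 encodes NRF2, the main activator of antioxidant genes. It was read at 49.6, 48.4, 41.7 and 46.5 RPKM in the WT libraries and at 25.0, 31.7, 25.5 and 26.2 RPKM in KO, also without overlap (log2 difference -0.76 ± 0.18, limma adjusted p = 0.441). Map1lc3b, a protein of the autophagosome membrane, was read at 123, 152, 109 and 99.9 RPKM in the WT libraries and at 49.1, 82.9, 118 and 57.6 RPKM in KO (-0.71 ± 0.28, limma adjusted p = 0.634), with KO3 inside the WT range. Chosen after their values were seen, Herpud1, a protein of endoplasmic reticulum degradation, was higher by 0.64 ± 0.28 on the log2 scale (limma adjusted p = 0.648). Vldlr, a lipoprotein receptor, was higher by 0.77 ± 0.40 (limma adjusted p = 0.678) without overlap of the groups. Of all genes tested, 2.05% were higher without overlap and 3.88% lower.

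In the remaining lists few genes stood out. Of 11 other serine, glycine and 1-carbon genes tested, 5 were higher and 6 lower (median -0.09, or 0.15 without KO3). Of 12 other carriers, 6 were higher and 6 lower (median 0.00), with none at an unadjusted p under 0.05 in either. The 17 mitochondrial tRNA synthetases were higher in 10 cases and lower in 7 (median 0.13, or -0.05 without WT3), also with none under that limit. Among 5 further cytosolic synthetase and scaffold genes, 3 were higher and 2 lower (median 0.08). Aimp2, a scaffold of the synthetase complex, was read at 16.4, 19.0, 13.4 and 15.2 RPKM in the WT libraries and at 19.0, 23.8, 27.3 and 27.7 RPKM in KO (log2 difference 0.58 ± 0.23, limma adjusted p = 0.634). Its KO libraries lay above 3 of the WT libraries, and KO1 lay level with WT2. Eef1e1, another scaffold, was higher by 0.78 ± 0.39 and Aimp1, the other one, had a log2 difference of -0.49 ± 0.43, or 0.30 within lane 4.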

How the data were processed

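RNA of 8 LSK libraries, 4 WT and 4 KO, was grouped by title and genotype. The deposited values are RPKM made by the authors, with 1 row for each Entrez gene. That unit was inferred, because no label or header names it: values times transcript length summed to a like total in all 8 libraries. TopHat, edgeR and the build mm9 appear in the submitters' processing notes without role or version. Which tool counted the reads, and whether by strand, is not given in the sources used here. A RefSeq table (GRCm38.p6) named 24029 of 24112 genes; it and the promoter windows are of another build than the deposited values.

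Values were tested as log2(RPKM + 1) with limma 3.58.1 in R 4.3.3 (eBayes, trend and robust, no covariate, Benjamini-Hochberg over all genes) in 11276 genes that reached 1 RPKM in 4 or more libraries. The fit was tested on simulated data. Whole reads could not be recovered from low values (46.6% to 57.9% whole within 0.03 reads), so depth is approximate, and no count test was run. The search range for depth was narrowed after 1 library came out at about double its present value.

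The 37 genes and all lists were chosen with earlier results of these data known. Genes named are all 37, Traf6 and, from each of 7 lists, up to 3 with the smallest p. Herpud1 and Vldlr were named after their values were seen. Alternatives were the filter, pseudocount 0.1, quantile normalization, lane, replicate block, library weights, an adjusted p under 0.1 and libraries left out. Chosen after seeing the data were the counts of genes highest in KO1 or lowest in KO3, the 20 RPKM limit, the counts at an unadjusted p by alternative, the setting without KO1 and KO3, and TGATGNAA among 3 forms searched. A grouping of all listed genes other than synthetases was dropped after its values were seen. No 2 libraries of a group shared identical nonzero values.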

Additional observations from a re-analysis of the deposited data

Results flagged for a closer look

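Among 72 groups of 4 libraries of the 37 genes, 4 held a library whose distance from the others was large for the range of its group (Dixon's 95% limit, which chance passes in about 1 of 20 groups). Phgdh was 780 RPKM in KO1 and 533 to 547 RPKM in the other KO libraries. Sesn2 was listed at 0 in KO3 against 3.40 to 3.69 RPKM, and Kars was 72.9 RPKM in KO3 against 116 to 119 RPKM. Trib3 was 3.23 RPKM in WT3 and 0 in the other WT libraries.

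The same limit was passed by 6 values of the other pathway genes. Eif2b5 was 61.5 RPKM in WT2 against 50.2 to 51.6 RPKM. Of the high values in KO3, Eif2b2 was 45.8 RPKM against 27.2 to 28.1 RPKM, Slc38a1 was 42.6 RPKM against 23.0 to 25.5 RPKM, and Wars2 was 11.6 RPKM against 1.89 to 3.10 RPKM. In KO2, Atf3 was 0.504 RPKM against 0 to 0.0165 RPKM and Nfe2l2 was 31.7 RPKM against 25.0 to 26.2 RPKM. In both of those genes KO2 still lay below every WT library.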

How the results depend on the processing

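The count of the 37 genes that passed the adjusted test (limma) was 0 under every alternative run. Over all genes, 0 were called in the test as reported, 2 in lane 4 alone, 164 with library weights, 3 without WT2, KO3 and KO4, and 0 to 2 when 1 library was left out (2 without KO3). Atf3 and Traf6 were called with library weights, in which KO2 had the largest weight, 6.5. Of the listed genes, 3 stood at an unadjusted p under 0.05. The count was 5 in lane 4 alone, where 11.0% of all genes met that limit, and 9 with library weights (17.7%). It was 7 without WT2, KO3 and KO4 (14.0%) and 5 without KO1 and KO3 (6.75%). When 1 library was left out it was 1 to 5, with 1 without WT1 (4.90%) and 5 without KO3 (9.45%) or KO4 (8.83%). Replicate numbers did not pair the libraries: correlations of same-numbered deviations were -0.0527, -0.0799, -0.0382 and -0.0639. With the replicate number as a block the count was 1, beside 6.25% of all genes, and no gene was called. With lane 5 holding KO libraries only, lane as a covariate gave the same estimates as lane 4 alone and was no separate check. List medians moved as follows. Lane as a covariate and lane 4 alone both gave 0.19 for all listed genes, 0.60 for serine, glycine and asparagine synthesis, 0.20 for class I, 0.31 for class II, 0.21 for all synthetases, 0.32 for those outside the complex, 0.04 for promoters without the core, 0.36 for eIF2 and eIF2B subunits, 0.29 for ATF4 partners, 0.18 for other serine and 1-carbon genes and 0.40 for scaffolds. Without WT2, KO3 and KO4 the values were 0.55 for serine, glycine and asparagine synthesis, 0.28 for class II, 0.36 for synthetases outside the complex, 0.30 for eIF2 and eIF2B subunits, 0.23 for ATF4 partners, 0.14 for other serine and 1-carbon genes and 0.48 for scaffolds. Library weights gave -0.30 for ATF4 regulators, 0.25 for synthetases outside the complex, 0.13 for ATF4 partners, 0.23 for other serine and 1-carbon genes and 0.37 for scaffolds. Without KO1 and KO3 they were -0.17 for ATF4 regulators, 0.04 for promoters without the core, 0.18 for ATF4 partners and 0.01 for other serine and 1-carbon genes. The 5 RPKM filter gave 0.13 for ATF4 partners and quantile normalization 0.15 for other serine and 1-carbon genes. When 1 library was left out the range was -0.18 to 0.11 for all listed genes, -0.82 to -0.21 for ATF4 regulators, -0.19 to 0.06 for class I, -0.28 to -0.00 for promoters without the core, -0.15 to 0.16 for ATF4 partners, -0.18 to 0.15 for other serine and 1-carbon genes, -0.12 to 0.33 for scaffolds and -0.05 to 0.24 for mitochondrial synthetases. A median counted as moved when it shifted by more than the SD between libraries of the list's level, centred on the mean of all genes (53 of 342; 19 of 342 without centring, the choice between them made after the data were seen). Single genes changed sign, with the cause not tested. Lane as a covariate and lane 4 alone gave log2 differences of 0.02 for Atf4, -0.25 for Eif2ak3, 0.61 for Mthfd2, 0.13 for Slc3a2, -0.04 for Eprs, 0.21 for Mars, 0.53 for Aars, 0.01 for Sars, 0.60 for Tars, 0.21 for Hars, 0.12 for Kars, 0.18 for Mthfd2l and 0.30 for Aimp1. Library weights gave -0.03 for Eif2ak3, 0.16 for Mthfd2, 0.04 for Slc3a2, -0.07 for Eprs, 0.11 for Mars, 0.21 for Aars, 0.31 for Tars, 0.01 for Hars, 0.04 for Kars, -0.04 for Dars, 0.45 for Mthfd2l, -0.09 for Slc7a6 and 0.02 for Aimp1. Without WT2, KO3 and KO4 the values were -0.07 for Eif2ak3, 0.44 for Mthfd2, 0.13 for Slc3a2, -0.07 for Eprs, 0.02 for Mars, 0.40 for Aars, 0.03 for Sars, 0.68 for Tars, 0.15 for Hars, 0.02 for Kars, 0.03 for Eif2ak1, 0.46 for Mthfd2l, -0.16 for Slc7a6 and 0.23 for Aimp1. Without KO1 and KO3 they were 0.24 for Ddit3, 0.39 for Mthfd2, 0.05 for Slc3a2, 0.10 for Aars, 0.20 for Hars, 0.13 for Kars, -0.17 for Dars and -0.05 for Slc38a1. Quantile normalization gave 0.31 for Mthfd2, -0.01 for Eprs, -0.09 for Vars and -0.03 for Dars, and pseudocount 0.1 gave -0.01 for Yars. When 1 library was left out, the range was -0.16 to 0.13 for Atf4, -0.29 to 0.44 for Shmt2, -0.81 to 0.60 for Mthfd2, -0.02 to 0.79 for Slc7a5, -0.28 to 0.11 for Slc3a2, -0.01 to 0.11 for Eprs, -0.07 to 0.11 for Vars, -0.34 to 0.51 for Yars, -0.02 to 0.44 for Qars, -0.57 to 0.34 for Aars, -1.86 to 0.02 for Tars, -0.18 to 0.30 for Hars, -0.14 to 0.13 for Kars, -0.06 to 0.14 for Dars and -0.00 to 0.28 for Slc38a1. Depth is an estimate, so no counting interval is given.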
